A study of Mus musculus with 36 samples.

Results

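A group of 10 genes of blood vessel endothelium was followed through treatment of mouse mesenteric lymph nodes with a soluble lymphotoxin-beta receptor. They were chosen by name: Cd300lg, Pecam1, Cdh5, Kdr, Flt1, Tek, Tie1, Plvap, Esam and Emcn. Every probe set listed under one of these symbols alone was kept, which gave 14 probe sets for the 10 genes, 12 on array A and 2 on array B, of 45137 probe sets and 18193 genes in all. The series measured total RNA of the nodes on a pair of Affymetrix arrays that carry different probe sets. The labels describe nodes exposed to the soluble receptor through day 1, 2, 3, 27 or 35 and day 0 nodes that received PBS, a saline vehicle, with 3 samples in each group on either array (36 measurements). The series title names the agent as sLTbetaR-Ig, a fusion of the receptor that binds its ligands in solution. The labels give no PBS group beyond day 0, no group given a control fusion protein, and neither strain nor age, so time and treatment cannot be told apart. The sources used here do not say whether the 3 samples of each group were separate mice, so p-values reflect only how much these samples varied, which may be technical.

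Blood endothelial cells line arteries, capillaries and veins, and in lymph nodes some of them form high endothelial venules, through which lymphocytes enter. Their shared genes encode junction proteins that hold neighbouring cells together, receptors for vascular endothelial growth factors and angiopoietins, and surface glycoproteins that differ between vessel types. Lymphotoxin signals to stromal and endothelial cells of the node and maintains the high endothelial venules.

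The arrays gave 1 intensity per probe set on a linear scale, with medians of 272.8 to 299.5 per array A sample and 149.8 to 165.2 per array B sample. Intensities are arbitrary units and were compared between samples of the same probe set, except in the ratios, likeness, sums and means over probe sets below. The test was limma on log2 intensities, limited to probe sets brighter than the median of their table in 3 or more of 18 samples, which took in 12 member probe sets of 9 genes. Emcn and 1 of the 4 Flt1 probe sets stayed below that level. A call is a Benjamini-Hochberg adjusted p below 0.05 over all tested probe sets of the table. Each log2 change is the treated group minus PBS, or the late groups (days 27 and 35) minus the early ones (days 1, 2 and 3), and ± values beside them are standard errors. The nodes carried the RNA of lymphocytes: Ms4a1 and Cd79a of B cells averaged 2565 and 3408 on PBS arrays, Cd3e and Cd3d of T cells 1804 and 1443, the homing receptor Ccr7 1056, the leukocyte phosphatase Ptprc 3004, and the follicular chemokine Cxcl13 1457. Called lower in the late groups against PBS were Cd79a, Cd3d and Cxcl13 of these 7, where 4.22% of all tested probe sets were. The median late log2 change of the 7 was -0.14. In whole nodes, fewer cells of a type and less RNA per cell cannot be told apart.

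Among the blood endothelial genes only Cd300lg, Tie1 and Cdh5 had a probe set that passed the test in any contrast. Cd300lg was lower on days 3, 27 and 35, Tie1 and 1 of the 2 Cdh5 probe sets were lower late than early, and Pecam1, Kdr, Tek, Plvap, Esam and Flt1 were called in no contrast. The late calls of Cd300lg and the calls of Cdh5 were lost, and that of Tie1 was not, when the level of small respiratory chain subunits on array A was a covariate, as given with each gene. In the late groups against PBS, 1 of the 12 tested member probe sets was called, lower, where 5.69% of all tested probe sets were called and 4.22% were called lower. The median late change of the members was 0.01, against 0.04 over all tested probe sets of array A and -0.01 over those of array B. In that contrast 5 member probe sets had an unadjusted p below 0.05, and 6 of the 12 lay above 0. How many of all tested probe sets reached that unadjusted level was not counted, so such counts, here and below, have no background share.

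By day, no member was called on day 1 or day 2, where 0.0121% and 0.0687% of all tested probe sets were called. One was called lower on day 3 (0.242% of all), 1 on day 27 (1.45%) and 2 on day 35 (4.22%). The combined early groups gave no member call, with 3 members at an unadjusted p below 0.05 and 0.0929% of all probe sets called. Late against early gave 3 calls, all lower, where 15.4% of the probe sets of array A and 1.66% of those of array B were called and 10.4% and 1.42% were called lower. Day 35 against day 27 gave none, with 2 members at an unadjusted p below 0.05 and 0.0% of all probe sets called. The F test over the 6 groups called 3 of the 12, Cd300lg, Tie1 and the Cdh5 probe set 1422047_at, where 4.29% of all were called. In a fit of all probe sets with no filter the Cdh5 probe set lost that call (limma F test, adjusted p = 0.0571).

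**Figure D1:**
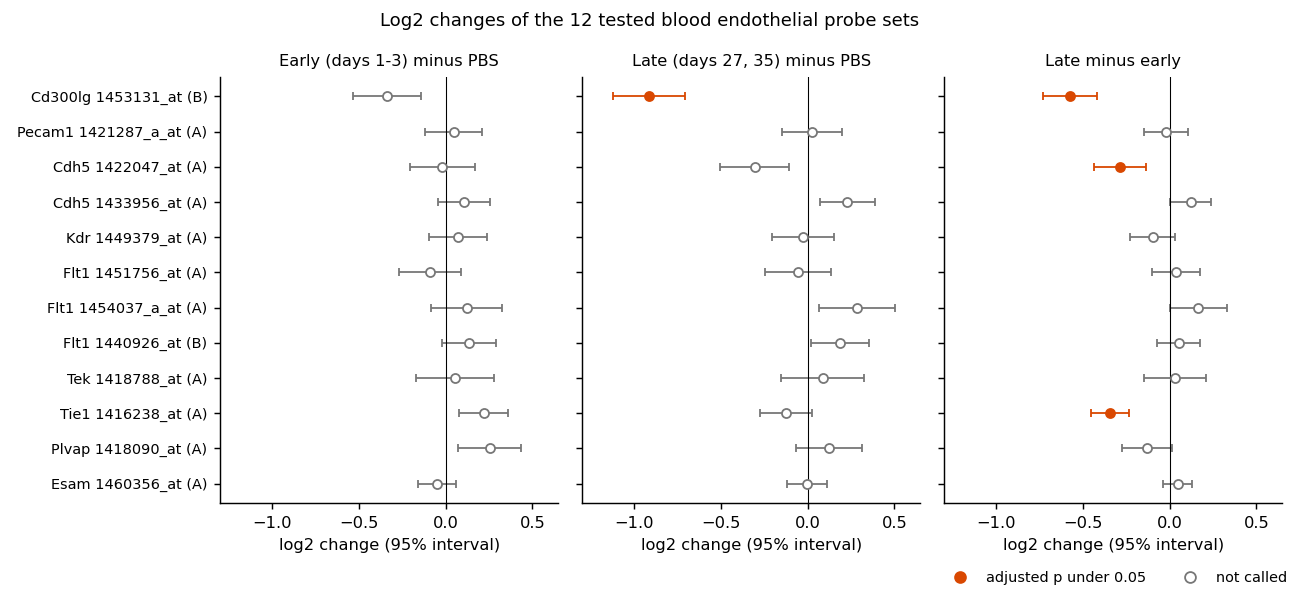
Log2 change of each tested member probe set in the early and late groups against PBS and in the late against the early groups, with bars for the 95% confidence interval and filled points for adjusted p below 0.05. Cd300lg lies at -0.91 in the late groups against PBS, while the other 11 probe sets lie between -0.30 and 0.29.

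Cd300lg encodes a mucin-like glycoprotein of the CD300 family that lies on the surface of venules and capillaries and binds lymphocytes. The gene lies on chromosome 11 at chr11:102041511-102055617 (RefSeq, GRCm38.p6), and a single probe set, 1453131_at on array B, measured it. Its intensity was 458.1, 410.3 and 363.7 in the PBS samples, 370.1, 332.0 and 323.9 on day 1, and 409.4, 364.0 and 391.8 on day 2. It was 281.1, 279.8 and 215.0 on day 3, 249.7, 270.6 and 219.9 on day 27, and 181.3, 186.8 and 208.3 on day 35. All 9 samples of days 3, 27 and 35 lay below the lowest PBS sample, whereas days 1 and 2 overlapped with PBS.

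By group the means ran from 410.7 ± 47.2 (SD, n = 3) in PBS through 342.0 ± 24.7 on day 1, 388.4 ± 22.9 on day 2, 258.6 ± 37.8 on day 3 and 246.8 ± 25.5 on day 27 to 192.1 ± 14.3 on day 35. In the order of levels, PBS overlapped with day 2, day 2 with day 1, and day 3 with day 27. The samples of day 1 lay above those of day 3, and the samples of day 27 above those of day 35. That last step, -0.36 on the log2 scale, was not called (limma, adjusted p = 1.0).

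The log2 change of Cd300lg from PBS was -0.26 on day 1 and -0.08 on day 2, neither called (limma, adjusted p = 0.661 and 0.882). It was -0.67 ± 0.114 on day 3 (adjusted p = 0.0316), -0.73 ± 0.114 on day 27 (adjusted p = 0.0138) and -1.09 ± 0.114 on day 35 (adjusted p = 0.000185). The 95% interval on day 35 ran from -1.33 to -0.852. The late groups together were lower than PBS by a log2 change of -0.91 ± 0.0991 (adjusted p = 0.000323), and lower than the early groups by -0.58 ± 0.0738 (adjusted p = 0.000474). The late mean was 219.4 ± 35.2 (SD, n = 6) and the early mean 329.7 ± 62.3 (SD, n = 9).

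The day 3 call rested on few samples. Its adjusted p was 0.19 without PBS replicate 1, 0.193 without PBS replicate 2, 0.071 without day 3 replicate 2 and 0.152 without day 3 replicate 3. The day 27 call was lost without PBS replicate 1 (adjusted p = 0.0609), PBS replicate 2 (0.102) or day 27 replicate 3 (0.0786). Leaving out any 1 sample did not lose the day 35 call.

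Small subunits of the respiratory chain were lower in the late groups too, and the calls of Cd300lg depended on how their level was taken into account. Of 42 tested genes of that list, 32 were lower in the late groups than in PBS, with a median log2 change of -0.44. On day 3 none was called and 6 had an unadjusted p below 0.05. Their mean log2 intensity on array A was 9.994, 9.799 and 9.926 on day 35, 10.06, 10.21 and 9.939 on day 27, and 10.31, 10.4 and 9.964 on day 3, against 10.33 to 10.37 in PBS. Day 3 replicate 3 was as low as the late samples, and the sample of that number on array B had the lowest Cd300lg of day 3, 215.0, without which the day 3 call was lost. With the same array's small-subunit mean as a covariate, which on array B rests on 6 probe sets, the late change of Cd300lg was -0.85 (limma, adjusted p = 0.00124). With the mean of array A, from 78 probe sets of the sample with the same day and number, it was -0.63 and not called (adjusted p = 0.0541). In that fit day 3 stayed called at -0.57 (adjusted p = 0.0496), day 27 was -0.52 (0.142), day 35 was -0.75 (0.0544), and late against early was -0.31 (0.252). The part of that shared movement in the result was not tested further.

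Flt1 was the only other member on array B, and its probe set 1440926_at there gave the reading of Cd300lg against a second endothelial gene on the same arrays. The log2 ratio of Cd300lg to Flt1 was 0.0392 ± 0.273 in the late groups (SD, n = 6) and 1.14 ± 0.11 in PBS (SD, n = 3). It ran from -0.321 to 0.421 in the late samples and from 1.07 to 1.27 in PBS, without overlap. The difference was -1.10 (two-sided exact permutation test, p = 0.0238, 0.041 after Benjamini-Hochberg adjustment over 9 such tests). With 6 against 3 samples and no overlap, 0.0238 is the smallest p that this two-sided test can return. The early groups averaged 0.668 ± 0.289 (n = 9), 0.47 lower than PBS (exact p = 0.0273, adjusted 0.041). Neither Cd300lg (-0.34, limma, adjusted p = 0.314) nor Flt1 1440926_at (0.13, adjusted p = 0.523) was itself called early, and they moved in opposite directions. The ratios of Cd300lg to Flt1, like those of Cdh5 and Tie1 that follow, were chosen after the values had been seen.

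**Figure D2:**
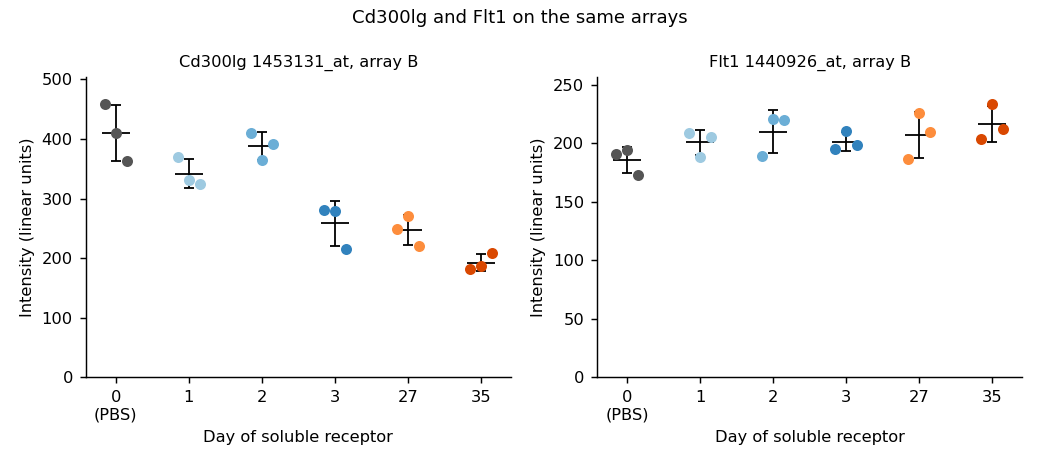
Intensity of Cd300lg and Flt1 on array B in each of the 18 samples by day, with PBS at day 0 and bars for the group mean and SD. Cd300lg averaged 192.1 on day 35 and 410.7 in PBS, while Flt1 averaged 216.3 on day 35 and 186.0 in PBS.

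The probe sets of array B whose 6 group means, each centred on its own mean, lay closest to those of Cd300lg belonged to Pck1, Lsm6, Atxn2l, Atox1 and Tmem256. Likeness was the root mean square difference in log2 over the 6 groups among 8619 probe sets with 1 symbol, and the 5 values were 0.0585, 0.0829, 0.0927, 0.105 and 0.114 against a median of 0.393. Pck1 encodes a gluconeogenic enzyme that fat cells also carry, Lsm6 a subunit of an RNA-binding ring, and Atox1 a copper chaperone. Pck1 averaged 205.2 on day 35 and 487.9 in PBS, a log2 change of -1.27. The day 35 changes of Lsm6, Atxn2l, Atox1 and Tmem256 were -0.97, -0.90, -0.94 and -0.95. The 5 nearest probe sets include no gene of the endothelial lists. Only 2 of the 14 member probe sets, Cd300lg itself among them, lie on array B, so the search could say little about the members. Other endothelial genes tested on array B, such as Ecscr, Mmrn2, Cyyr1 and Adgrf5, were among the probe sets compared.

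Tie1 and Tek encode the Tie family receptors of endothelial cells, and Tek is the receptor that binds angiopoietins while Tie1 modulates it. Both genes lie on chromosome 4, Tie1 at chr4:118471191-118489849 and Tek at chr4:94739086-94874976. The promoters are shown because the ratio of these 2 messages was lower in the late than in the early groups. They are windows of 300 bases from RefSeq on GRCm38.p6, placed 250 bases before to 50 after the transcript start that the promoter table used, for Tie1 on the minus strand at chr4:118489800-118490099 and for Tek on the plus strand at chr4:94739039-94739338. The start used for Tek lies inside the gene's span given above, so most of that window is downstream of the gene's first base. Capitals mark GGAA on either strand (TTCC on the printed one), the core that ETS family factors bind.
Tie1: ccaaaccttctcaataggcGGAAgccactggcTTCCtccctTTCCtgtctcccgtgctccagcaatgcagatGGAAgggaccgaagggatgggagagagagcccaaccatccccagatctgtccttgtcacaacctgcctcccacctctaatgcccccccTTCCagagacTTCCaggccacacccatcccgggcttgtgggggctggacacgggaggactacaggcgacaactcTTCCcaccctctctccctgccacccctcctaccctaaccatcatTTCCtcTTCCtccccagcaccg
Tek: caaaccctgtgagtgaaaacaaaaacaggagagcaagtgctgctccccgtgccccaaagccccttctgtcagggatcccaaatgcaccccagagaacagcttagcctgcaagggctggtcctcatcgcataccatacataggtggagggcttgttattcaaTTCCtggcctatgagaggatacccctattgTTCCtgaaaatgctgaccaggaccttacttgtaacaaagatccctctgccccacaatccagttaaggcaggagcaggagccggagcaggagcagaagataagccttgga
The Tie1 window held 9 such cores and the Tek window 2. Whether the cores relate to the levels of these messages was not tested. The core was found in 96.0% of 32544 RefSeq promoters of the same length, with a median of 3.0 per promoter, so its presence is the rule. Promoters were listed for 5 of the 10 members, and the cores in the others numbered 5 for Kdr, 4 for Flt1 and 6 for Emcn.

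Tie1 (1416238_at, array A) read 251.3, 265.3 and 236.0 in PBS, 296.4, 299.6 and 279.0 on day 1, 322.7, 291.3 and 335.4 on day 2, and 255.4, 276.4 and 279.5 on day 3. It read 259.4, 219.3 and 234.1 on day 27 and 222.7, 217.8 and 230.1 on day 35. Of 9 early samples 8 lay above the highest PBS sample, and 5 of 6 late samples lay below the lowest early and the lowest PBS sample. The late groups averaged 230.6 ± 15.5 (SD, n = 6) and the early groups 292.8 ± 24.5 (SD, n = 9), a log2 difference of -0.34 ± 0.0532 (limma, adjusted p = 0.00026). Against PBS neither period was called, with 0.22 early (adjusted p = 0.416) and -0.12 late (adjusted p = 0.305, 95% interval -0.273 to 0.0269). Tie1 passed the filter on 5 arrays, all of days 1 and 2. In a fit of all probe sets with no filter the late against early difference was -0.34 (adjusted p = 0.000751), and with the small-subunit mean as a covariate it was -0.39 (adjusted p = 0.0417).

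Tek (1418788_at, array A) read 379.8, 310.2 and 338.8 in PBS, 335.8, 345.9 and 313.3 on day 1, 398.7, 373.5 and 361.2 on day 2, and 377.2, 382.7 and 317.4 on day 3. It read 383.2, 418.2 and 369.0 on day 27 and 426.5, 350.3 and 257.6 on day 35, so that the day 35 samples spanned the PBS samples on both sides. The late change from PBS was 0.09 (limma, adjusted p = 0.683), with a 95% interval from -0.153 to 0.324. The log2 ratio of Tie1 to Tek averaged -0.656 ± 0.285 in the late groups (SD, n = 6) and -0.282 ± 0.154 in the early groups (SD, n = 9), a difference of -0.37 (two-sided exact permutation test, p = 0.0104, adjusted 0.0312). The late samples ran from -0.937 to -0.163 and the early ones from -0.562 to -0.107, so that the periods overlapped. The late ratio differed from PBS by -0.21, which was not called (exact p = 0.31, adjusted 0.349).

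Cdh5 encodes VE-cadherin, the adhesive protein of endothelial adherens junctions, and its 2 tested probe sets lay on opposite sides of PBS in the late groups. The gene lies on chromosome 8 at chr8:104101613-104144504. Probe set 1422047_at read 330.5, 300.8 and 259.4 in PBS, 316.9, 293.0 and 299.3 on day 1, 328.0, 318.1 and 352.0 on day 2, and 271.1, 266.3 and 207.3 on day 3. It read 238.6, 278.3 and 235.4 on day 27 and 248.1, 218.7 and 220.7 on day 35, with 5 of 6 late samples below the lowest PBS sample. Probe set 1433956_at read 455.4, 475.9 and 426.4 in PBS, 510.1, 513.8 and 492.7 on day 1, 427.3, 475.2 and 543.3 on day 2, and 440.8, 520.1 and 471.4 on day 3. It read 576.3, 494.9 and 541.5 on day 27 and 525.4, 494.2 and 549.5 on day 35, with all 6 late samples above the highest PBS sample.

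For 1422047_at the log2 change was -0.37 ± 0.109 on day 35 (limma, adjusted p = 0.0467) and -0.29 ± 0.0705 for late against early (adjusted p = 0.00958). The late change from PBS, -0.30, missed the threshold (adjusted p = 0.0536) and passed it under some alternatives, with quantile normalization (-0.35, adjusted p = 0.00953), without a trend (0.0466), with the replicate block (0.0423), with array weights (0.000468) and without the 3 samples of lowest weight (0.0086). It passed as well without PBS replicate 3 (0.0394), day 27 replicate 2 (0.0232) or day 35 replicate 1 (0.0473). For 1433956_at the late change was 0.23, with a 95% interval from 0.0689 to 0.387 and an adjusted p of 0.0706, and it was called without day 27 replicate 2 (0.26, adjusted p = 0.0343). The day 35 call was lost without PBS replicate 1 (adjusted p = 0.156), PBS replicate 2 (0.125), day 35 replicate 2 (0.169) or day 35 replicate 3 (0.102). With the small-subunit mean of the same array as a covariate, the day 35 change of 1422047_at was 0.01 (adjusted p = 0.983) and the late against early difference 0.01 (adjusted p = 0.974). That probe set passed the filter on 8 arrays, all of days 0, 1 and 2. Without a filter the day 35 adjusted p was 0.0968 and that of the F test 0.0571.

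The log2 ratio of 1422047_at to 1433956_at averaged -1.15 ± 0.175 in the late groups (SD, n = 6) and -0.614 ± 0.134 in PBS (SD, n = 3). Late samples ran from -1.32 to -0.83 and PBS samples from -0.717 to -0.463, without overlap. The difference was -0.53 (two-sided exact permutation test, p = 0.0238, adjusted 0.041), and late against early it was -0.41 (exact p = 0.0044, adjusted 0.0198). For 6 late against 3 PBS samples, 0.0238 is again the smallest p that the test can return. The early ratio differed from PBS by -0.13, which was not called (exact p = 0.418, adjusted 0.418). Neither probe set's late change from PBS was itself called outside those alternatives, the ratio was chosen after both had been seen, and no direction is given for the gene.

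**Figure D3:**
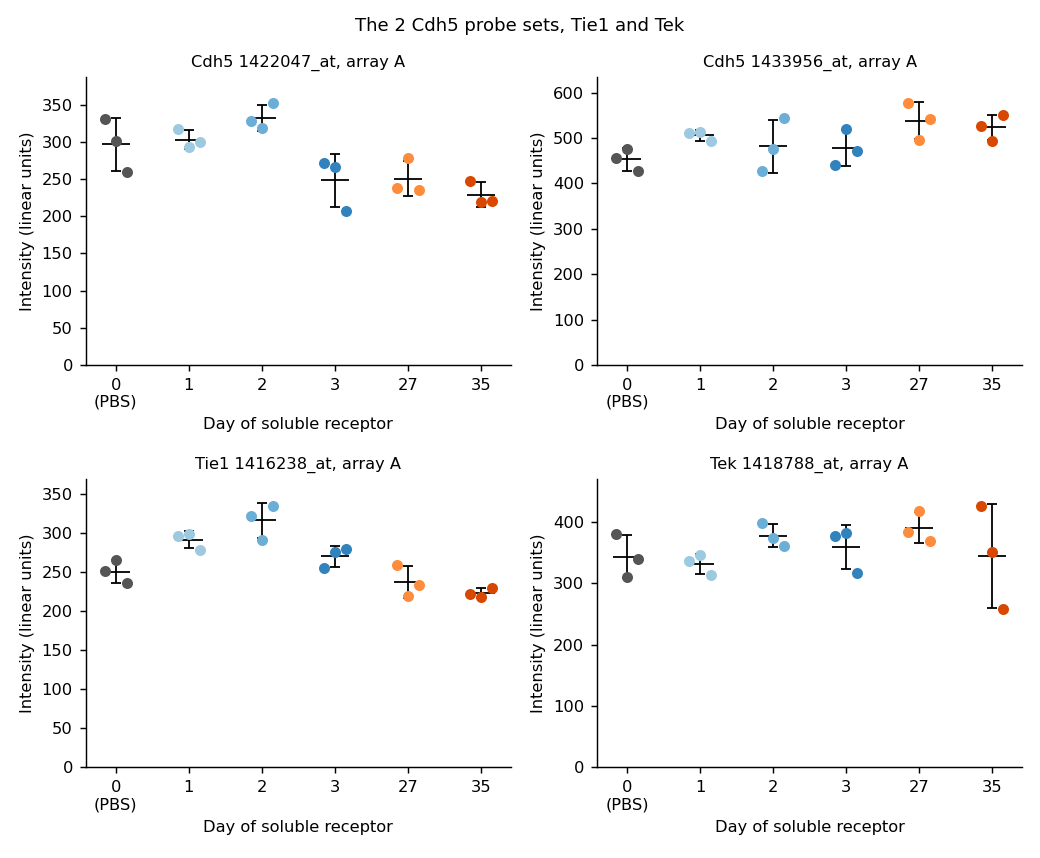
Intensity of the 2 Cdh5 probe sets, Tie1 and Tek on array A in each of the 18 samples by day, with PBS at day 0 and bars for the group mean and SD. Cdh5 1422047_at averaged 229.2 on day 35 and 296.9 in PBS, Cdh5 1433956_at 523.0 and 452.5, and Tie1 is highest on day 2 at 316.5.

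Pecam1 and Esam encode further adhesion proteins of endothelial contacts, and neither passed the test in any contrast. Pecam1 (1421287_a_at) read 1020, 957.3 and 938.9 in PBS. It read 1073, 846.4 and 1061 on day 27 and 1032, 1099 and 854.0 on day 35, on both sides of PBS. Its late change was 0.03 (limma, adjusted p = 0.883, 95% interval -0.148 to 0.199). Esam (1460356_at) read 590.5, 581.4 and 590.1 in PBS. It read 630.2, 601.4 and 590.1 on day 27 and 545.4, 547.0 and 602.4 on day 35, again on both sides of PBS. The late change of Esam was -0.01 (adjusted p = 0.965), and its 95% interval, from -0.119 to 0.109, bounds the change in either direction.

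Kdr and Flt1 encode the receptors for vascular endothelial growth factors on blood endothelium, Kdr the main signalling receptor and Flt1 one that also exists as a soluble decoy. Kdr (1449379_at) read 1337, 1590 and 1470 in PBS, 1680, 1280 and 1660 on day 27, and 1364, 1333 and 1347 on day 35. The day 35 samples lay within the range of PBS apart from 1333, just below it, and the late change was -0.03 (limma, adjusted p = 0.879, 95% interval -0.204 to 0.15). Early means of Kdr were 1558 ± 133, 1608 ± 97.1 and 1457 ± 91.2 on days 1, 2 and 3, against 1466 ± 126 in PBS (SD, n = 3 each).

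Flt1 had 4 probe sets, which lay on both sides of PBS in the late groups. Probe set 1454037_a_at read 317.4, 383.7 and 339.5 on day 27 and 363.3, 381.9 and 314.7 on day 35, all above the PBS samples of 311.4, 306.1 and 246.3. Its late change was 0.29 and not called (limma, adjusted p = 0.101, 95% interval 0.0654 to 0.505). On array B, 1440926_at averaged 211.9 ± 16.5 in the late groups (SD, n = 6) and 186.0 ± 11.2 in PBS (SD, n = 3), with 5 of 6 late samples above the highest PBS sample and a change of 0.19 (adjusted p = 0.203). Probe set 1451756_at averaged 466.4 ± 68.4 late and 480.0 ± 11.4 in PBS, a change of -0.06 (adjusted p = 0.744), and its lowest value, 337.7, came from day 35 replicate 3. The dim probe set 1419300_at, which was not in the test, had all 9 early samples, at 168.6 to 197.1, below the lowest PBS sample of 198.3. In the fit with no filter its early change was -0.17 (adjusted p = 0.434) and its late change -0.07 (adjusted p = 0.538).

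Plvap encodes the protein of the diaphragms that span endothelial fenestrae and caveolae, and most of its early samples stood above PBS. It averaged 1701 ± 79.4 on day 1, 1688 ± 234 on day 2 and 1715 ± 95 on day 3, against 1429 ± 154 in PBS (SD, n = 3 each). Of 9 early samples 8 exceeded the highest PBS sample, 1598. The early change was 0.25 with a 95% interval from 0.0741 to 0.433, and it was not called (limma, adjusted p = 0.517). The late groups averaged 1556 ± 163 (SD, n = 6), a change of 0.12 (adjusted p = 0.429).

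Emcn encodes endomucin, a sialomucin of capillaries and veins, and its probe set 1425582_a_at stayed below the filter. It averaged 250.7 ± 25.4 in the late groups (SD, n = 6) and 217.8 ± 23.7 in PBS (SD, n = 3), and 4 of 6 late samples lay above the highest PBS sample. In the fit with no filter the late change was 0.20 ± 0.10 (limma, adjusted p = 0.315) and the early change 0.21 (adjusted p = 0.877).

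Counted over samples, 1 of the 12 tested member probe sets had all 6 late samples below every PBS sample (Cd300lg) and 2 had all of them above (Cdh5 1433956_at and Flt1 1454037_a_at). Over all tested probe sets these shares were 7.48% and 4.26%. On day 35, 3 were below and 3 above, where 15.1% and 15.6% of all tested probe sets were. Added over 9 member genes of array A, with the brightest probe set of each, intensity was 5764 to 6506 on day 35, 6189 to 7005 on day 27 and 6055 to 6469 in PBS. The sum was 6490 to 6981 on day 1 and 6472 to 7166 on day 2, both above PBS, and 6261 to 6784 on day 3. Such a sum weighs the brightest probe sets most, and its differences were not tested.

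In the list of other endothelial identity genes, 1 of 26 tested rose and 2 fell in the late groups against PBS. Over all tested probe sets 5.69% were called and 4.22% were called lower. The list's median log2 change was 0.03, and 10 of its genes had an unadjusted p below 0.05. Ecscr, a surface protein of endothelial cells that acts in their migration, averaged 249.2 ± 22.3 in the late groups (SD, n = 6) and 332.7 ± 17.6 in PBS (SD, n = 3). Its late change was -0.42 ± 0.0746 (limma, adjusted p = 0.00424), and -0.34 (adjusted p = 0.171) with the small-subunit mean of array A as a covariate. Ramp2, the partner of the adrenomedullin receptor, averaged 835.1 ± 109 and 1137 ± 45.8 in the same groups, a change of -0.46 ± 0.104 (adjusted p = 0.0104), which was -0.05 (adjusted p = 0.841) with that covariate. Mcam, an adhesion molecule of vessel walls, was lower on day 35 by -0.36 ± 0.0893 (adjusted p = 0.0205), and -0.20 (adjusted p = 0.487) with the covariate. Clec14a, an endothelial lectin named here after its values were seen, averaged 294.2 ± 28.5 late and 238.0 ± 33.9 in PBS, a rise of 0.31 (adjusted p = 0.0383).

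**Figure D4:**
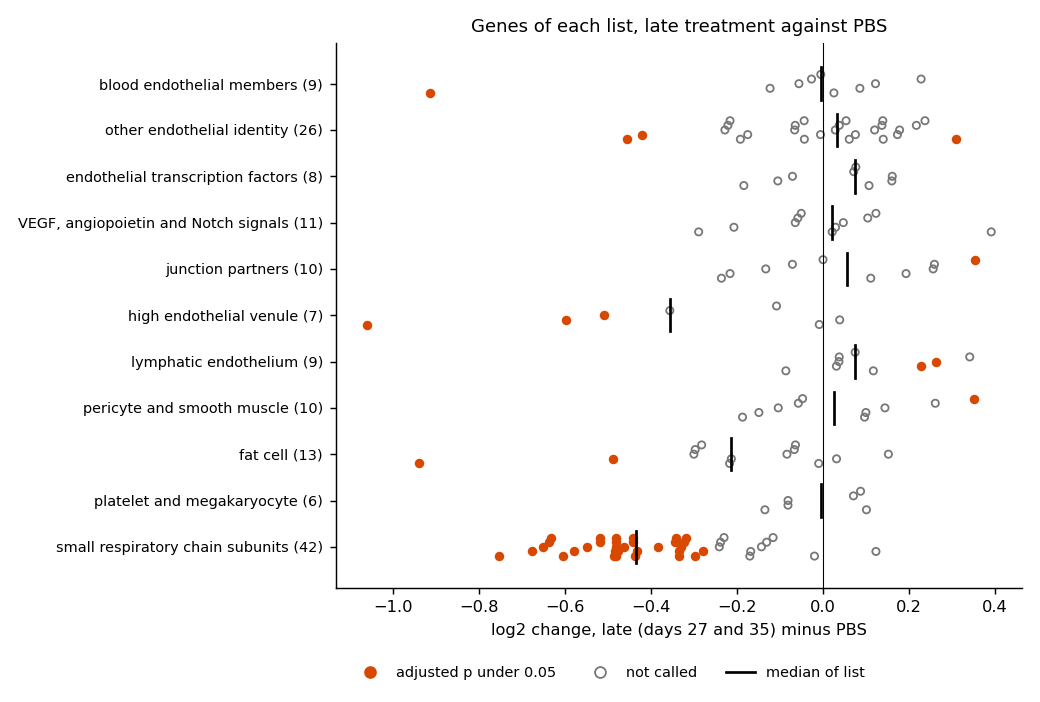
Late log2 change from PBS of each tested gene by list, 1 point per gene, with lists down the page, a line at each list's median and filled points for adjusted p below 0.05. The small respiratory chain subunits have 32 of 42 genes lower, and the other endothelial identity genes 1 higher and 2 lower of 26.

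Of 8 tested endothelial transcription factors none was called in the late groups, where 5.69% of all tested probe sets were. Among these 8, 2 had an unadjusted p below 0.05, and the median change was 0.07. Erg, an ETS factor, stood at -0.11 (limma, adjusted p = 0.355) and Sox18 at 0.16 (adjusted p = 0.143), neither called. Epas1, the hypoxia-inducible factor of endothelium, was lower late than early by -0.20 ± 0.0599 (adjusted p = 0.0277). Of 11 genes of the growth factor, angiopoietin and Notch signals none was called late, with 3 at an unadjusted p below 0.05, and Vegfb, a ligand of Flt1, was lower on day 35 by -0.34 ± 0.0942 (adjusted p = 0.0321). The signals Apln and Jag1 had late changes of 0.10 and -0.29 (adjusted p = 0.391 and 0.147). Of 10 junction partners only Ctnnb1, the beta-catenin that binds cadherins, was called late, higher by 0.35 ± 0.0976 (adjusted p = 0.0308), while Ctnna1 stood at 0.19 (adjusted p = 0.206). Afdn, which links junctions to actin, was lower on day 35 by -0.32 ± 0.0824 (adjusted p = 0.0392). With the small-subunit mean of array A as a covariate, Epas1 was -0.03 (adjusted p = 0.898), Vegfb 0.02 (0.947), Ctnnb1 0.09 (0.734) and Afdn -0.40 (0.156).

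Some high endothelial venule genes were lower already in the early groups. Of 7 tested, Glycam1, Madcam1 and Ubd were called lower early and late, and none was called between late and early. Over all tested probe sets 0.0929% were called early in either direction and 4.22% were called lower late. The mucin Glycam1 averaged 3087 ± 1210 early (SD, n = 9), 2865 ± 770 late (SD, n = 6) and 5807 ± 727 in PBS (SD, n = 3), and its late against early difference was -0.05 (limma, adjusted p = 0.689). These pooled means cover days that differed. Glycam1 averaged 4619 ± 239, 2688 ± 107 and 1954 ± 303 on days 1, 2 and 3 (SD, n = 3 each). It averaged 2233 ± 261 on day 27 and 3496 ± 465 on day 35, a log2 difference of 0.64 that was not called (limma, adjusted p = 0.0821). The addressin Madcam1 had a late change of -0.60 ± 0.0878 (adjusted p = 0.000478) and the ubiquitin-like Ubd one of -0.51 ± 0.0986 (adjusted p = 0.00359).

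Markers of other cell types in the tissue were measured beside these results, and their part in them was not tested. In the late groups against PBS, 5.69% of all tested probe sets were called and 4.22% were called lower. Of 9 lymphatic endothelial genes 2 were higher late, Reln by 0.26 ± 0.0766 (limma, adjusted p = 0.0402) and Itga9 by 0.23 ± 0.0689 (adjusted p = 0.0484), while the receptor Flt4 stood at 0.12 (adjusted p = 0.24). Of 10 pericyte and smooth muscle genes only Rgs5 was called late, higher by 0.35 ± 0.0952 (adjusted p = 0.0286), Abcc9 was higher on day 27 by 0.36 ± 0.0925 (adjusted p = 0.0372), and Tagln was lower late than early by -0.28 ± 0.077 (adjusted p = 0.0192). None of 6 platelet genes was called, nor had any an unadjusted p below 0.05 in the late groups, with late changes of -0.14 for Gp9, 0.10 for Treml1 and -0.08 for Itgb3. Of 6 red cell genes Hbb-b2, whose probes may also read near-identical globin genes, was called, lower by -1.25 ± 0.256 (adjusted p = 0.00514), while Alas2 and Slc4a1 stood at 0.06 and 0.24 (adjusted p = 0.742 and 0.181). Of 13 fat cell genes 2 were lower late, Pck1 by -0.94 ± 0.204 (adjusted p = 0.00737) and Cidec by -0.49 ± 0.137 (adjusted p = 0.0333), and Lipe was lower on day 35 by -0.60 ± 0.124 (adjusted p = 0.00676). The median change of the fat cell list was -0.21 late and -0.28 on day 35. At an unadjusted p below 0.05 were 6 of the 13 late and 8 on day 35. The summed intensity of 14 fat cell genes on array A was 26000 to 33580 on day 35, 32510 to 39200 on day 27 and 34400 to 37130 in PBS. Of the small respiratory chain subunits, Ndufb6, Ndufc1 and Cox5a had the smallest F test p, and their late changes were -0.60, -0.75 and -0.48 (adjusted p = 0.000573, 0.00032 and 0.00193).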

How the data were processed

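RNA of 18 lymph node samples was read on each of 2 arrays. The authors deposited 1 linear intensity per probe set and array. The sources used here do not state how the scanner signal was summarised, corrected and scaled. Array medians agreed within a ratio of 1.1 on either array, and no scaling was added. Of the 22626 probe sets of array A and 22511 of array B, 20380 and 14661 carried 1 gene symbol in the platform annotation, and only these were named. The 64 control probe sets of each array were left out. The group of each sample came from its title and description, because 1 array B sample of day 1 has an unrelated phrase as its source.

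A floor was set at each table's 20th percentile (122.6 for array A and 76.6 for array B) before taking log2. Probe sets above the table median (286.7 and 157.9) on at least 3 arrays, 12231 and 12516, entered limma 3.58.1 in R 4.3.3 (lmFit, eBayes with trend), with the 6 groups in 1 fit per table and no covariate. Within each table and contrast, p-values were adjusted after Benjamini and Hochberg. Ratios were computed with pandas 2.3.3, NumPy 2.4.6 and SciPy 1.17.1 in Python 3.11.15. The limma step was tested on simulated data with independent noise in each sample, which does not cover samples that deviate together. The number of arrays limits the precision.

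The members and the 13 gene lists were chosen with earlier results of these data known. Beside all members, the text names up to 3 genes per list with the smallest F test p, every tested gene of the tissue check, and the 5 probe sets of array B nearest to Cd300lg. For a gene of a list with several probe sets, the brightest tested one was used, on array A where tested. Alternatives were quantile normalization, a floor at the 10th percentile, no filter, no trend, weights per array, a replicate block, the mean log2 intensity of small respiratory chain subunits as a covariate, the groups compared only, and samples left out. The array A subunit mean as a covariate on array B was added after seeing the data. Over 94 shared probe sets, 10 of 18 samples on array A correlated best within their group with the array B sample of the same number, so the match of samples between arrays rests on the labels.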

Additional observations from a re-analysis of the deposited data

Results flagged for a closer look

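The change from PBS of 3 member probe sets differed between the late (days 27 and 35) and the early (days 1, 2 and 3) groups by a test of the difference itself in limma. Over all tested probe sets, 15.4% of array A, which holds Tie1 and Cdh5, and 1.66% of array B, which holds Cd300lg, were called in this contrast. The late minus early log2 difference was -0.34 for Tie1, -0.29 for Cdh5 1422047_at and -0.58 for Cd300lg. Tie1 passed the filter only on arrays of days 1 and 2, and Cdh5 1422047_at only on arrays of days 0, 1 and 2. With the small-subunit mean as a covariate the Cdh5 difference was 0.01 (limma, adjusted p = 0.974). Tie1 was on opposite sides of PBS in the 2 periods, -0.12 late and 0.22 early, with neither called. The other Cdh5 probe set, 1433956_at, differed between the periods by 0.12, which was not called (limma, adjusted p = 0.162).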

How the results depend on the processing

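Tie1 kept its late against early call under all 24 alternatives, from -0.39 to -0.31. Cd300lg kept its calls on day 35 (from -1.18 to -0.98), late (from -0.998 to -0.831) and late against early (from -0.64 to -0.50) under 15, 18 and 24 alternatives, and lost each with the array A subunit mean as a covariate on array B. On array A this fit and the planned covariate are the same. With that covariate the direction turned for Cdh5 1422047_at on day 35 (0.0088) and late against early (0.0071), Lipe late against early (0.0089), Ramp2 late against early (0.033), Tagln late against early (0.058) and Vegfb on day 35 (0.020); the covariate moved with the late groups and the cause was not tested.

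Counts of called member probe sets moved as follows, and the cause was not tested. With array weights, whose fit stopped before convergence, the counts were 2 on day 2 (both higher), 1 early, 3 on day 27 (1 higher), 4 on day 35 (1 higher), 6 late (4 higher), 4 for late against early (1 higher), 1 for day 35 against day 27 and 6 in the F test. The 4 higher late were Tek, Cdh5 1433956_at, Flt1 1454037_a_at and Flt1 1440926_at. Without the 3 samples of lowest weight they were 0 on day 3, 3 on day 27 (1 higher), 3 on day 35 (1 higher) and 4 late (2 higher, Cdh5 1433956_at and Flt1 1454037_a_at). Without a filter they were 0 on day 3 and 1 on day 35, and with only the groups compared likewise 0 and 1. Cdh5 1422047_at also lost its F test call without a filter. Late gave 2 with quantile normalization and 2 with no trend, both lower, as Cdh5 1422047_at was gained, and 2 with the covariate, where Flt1 1440926_at was gained as higher. With the covariate late against early gave 2 and the F test 1. With the array A covariate on both arrays, day 27, day 35, late and the F test gave 0 and late against early 1. Leaving out 1 sample gave 0 to 1 on day 3 and day 27, 1 to 2 on day 35, 1 to 3 late, 3 for late against early and the F test, and 0 on day 1, day 2, early and day 35 against day 27.

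The replicate block gave 2 calls late, both lower, with Cdh5 1422047_at gained, and left the other member counts as they were. The correlation of deviations exceeded 0.1 in 18 of 45 same-number pairs on array A and in 34 of 45 on array B, with medians of 0.0189 and 0.37 against 0.00415 and -0.098 for different numbers, and 8 and 12 of 18 samples lay closest to their own number. Same-numbered samples thus tended to deviate together on array B, a hint from the data, but not in every pair, so the block was not taken as the design. Among the late calls of other genes, alternatives lost Clec14a in 9 of 18, Reln in 9, Ctnnb1 in 8, Cidec in 8, Rgs5 in 6, Ramp2 in 3, Pck1 in 1 and Itga9 in 13, and Ecscr late was lost with the array A covariate.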
